A study of Danio rerio with 6 samples.

Results

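The mitochondrial solute carriers of the Slc25 family were examined in bulk RNA-sequencing of dissected guts from 5-dpf (days post-fertilization) zebrafish larvae. Every gene of the count table whose symbol begins with slc25a and a number was taken as a member, which gave 49 of 15419 listed genes. These 49 genes covered 39 family numbers, since several carriers exist as duplicated a and b copies in zebrafish. Of them, 41 had enough counts to be tested, as did 11095 genes in all. The tested larvae were il26-/- (titled il26KO, with a CRISPR/Cas9 deletion made with a pair of guides in the gene of the cytokine IL-26), and the controls were wild type (WT). Parents of both genotypes were clutchmates kept in separate tanks, so genotype and tank cannot be told apart. Each genotype had 3 libraries, and each library pooled 10 to 15 guts. Values are given as CPM, counts scaled to library size, with sizes adjusted by TMM, a trimmed mean over genes.

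Slc25 carriers move metabolites across the inner mitochondrial membrane, which is closed to most charged molecules. They bring in ADP and phosphate and let ATP out, and they pass citrate, malate, amino acids, acylcarnitines, cofactors and iron between matrix and cytosol. In absorptive enterocytes they serve ATP supply, fatty acid oxidation and the export of citrate for lipid synthesis. A few members are exceptions to the inner membrane, such as slc25a17 in peroxisomes and slc25a46 in the outer membrane. Proteins of the family are built from repeats of 1 module, and paralogs can be alike in sequence. How reads that match several genes were counted was not stated, so values of close paralogs are uncertain.

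The il26 gene itself was listed at 0 in all 6 libraries, so its counts do not check the genotype labels. Library depth was 15693057 to 28303340 counts, and 3 counts corresponded to 0.106 to 0.192 CPM. All 12 intestinal epithelium markers of the list were tested, among them cdh17 and vil1. Their summed level was 53257 to 55850 CPM in il26-/- and 46059 to 56608 CPM in WT libraries. Most reads of this sum came from apobb.1, with a mean of 28599 CPM in il26-/- and 25828 CPM in WT. The marker fabp2 had only 2 to 12 counts per library. Markers of acinar pancreas (38505 to 61422 CPM in il26-/-, 48021 to 62296 CPM in WT) and liver (11088 to 14407 CPM in il26-/-, 8727 to 19651 CPM in WT) were also abundant, so the dissected tissue was not gut alone. In bulk tissue, a change in the share of a cell type and a change of RNA per cell cannot be told apart.

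Slc25 genes took 1.11% to 1.16% of all counts in il26-/- libraries and 1.07% to 1.13% in WT libraries. Carriers with other symbols, such as the uncoupling protein genes, were not counted among the members. Among the members, slc25a5 alone supplied most of the reads. This ADP/ATP carrier made up 71.8%, 73.6% and 71.5% of Slc25 counts in il26-/- replicates 1 to 3, against 72.1%, 70.0% and 71.5% in WT replicates 1 to 3. The phosphate carrier slc25a3b came next. No transcript lengths were used here, so the order of members is an order of reads and not of transcripts.

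After these, the members with the most WT reads were slc25a10, slc25a1b, slc25a20, slc25a11, slc25a48, slc25a33, slc25a25a and slc25a24. The WT ranges of slc25a20 and slc25a11 overlapped, as did those of slc25a11 and slc25a48, slc25a33 and slc25a25a, and slc25a25a and slc25a24. The other neighbours among the first 10 did not overlap. In WT guts, 7 tested members averaged above 100 CPM, 21 between 10 and 100 CPM, and 13 at or below 10 CPM. Within a genotype most members were steady, with a median ratio of the highest to the lowest library of 1.22 in il26-/- and 1.18 in WT. In 8 members this ratio passed 1.5 in at least 1 genotype.

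**Figure D1:**
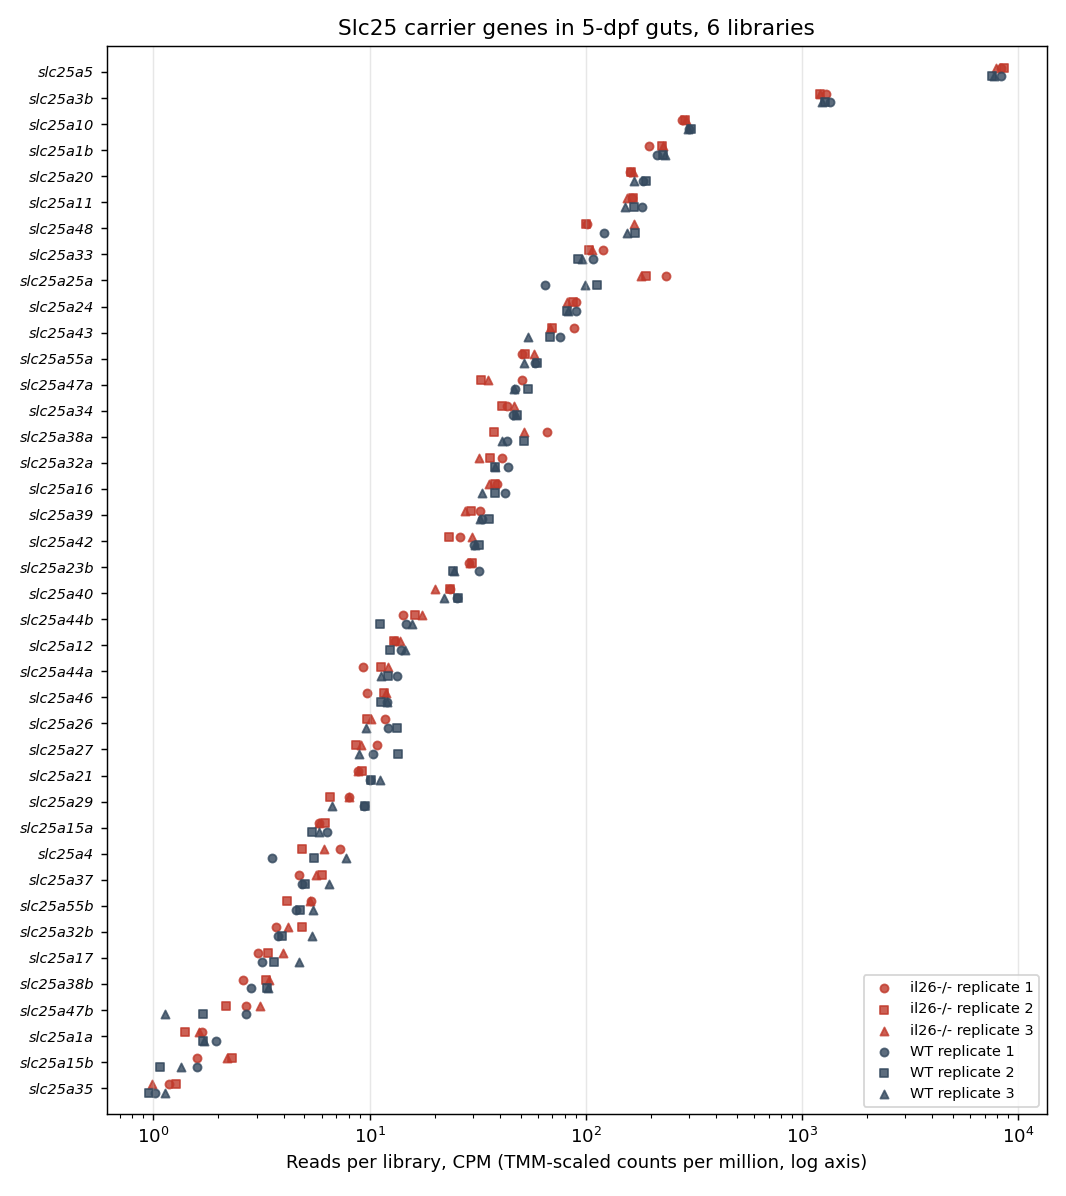
Levels of 40 of the 41 tested Slc25 genes in each library, in CPM on a log axis, ordered by their WT mean, with il26-/- libraries in red above WT libraries in dark blue and a marker shape for each replicate number. The genotypes lie close together for most genes, while the 3 il26-/- points of slc25a25a (180 to 235 CPM) lie above its 3 WT points (65.1 to 112 CPM).

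The 2 genotypes were compared to find carriers whose expression differed without IL-26. No member passed the edgeR quasi-likelihood test at an adjusted p-value below 0.05 (0 of 41), where 12 of 11095 genes did (0.108%). The smallest adjusted p-value of a member was 0.144, for slc25a25a, and the next was 0.777. At an unadjusted p-value below 0.05 there were 4 members (9.76%), 2 higher and 2 lower in il26-/-, against 6.03% of all genes. Without WT replicate 2 there was 1, slc25a25a, where 424 of 11206 genes had such a p-value. DESeq2, run as an alternative, called 1 of the 41 members, slc25a25a, where it called 0.811% of the genes to which it gave an adjusted p-value.

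Log2 fold changes of il26-/- over WT ran from -0.31 to 0.60 in the 40 tested members other than slc25a25a. The 95% interval of 31 of the 41 members lay wholly inside a 1.5-fold change in either direction, so a larger difference is outside the interval of these 31. More members had lower than higher mean estimates in il26-/-. The log2 fold change was above 0 in 15 of 41 members (36.6%), against 53.2% of all genes. Its median was -0.055 over the members and 0.011 over all genes. Without WT replicate 3, 46.3% of the members and 54.1% of all genes had estimates above 0. The il26-/- and WT libraries did not overlap in 8 members, 2 higher and 6 lower in il26-/-, a share of 19.5% against 10.9% of all genes. These shares describe the members as taken by symbol and carry no test.

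**Figure D2:**
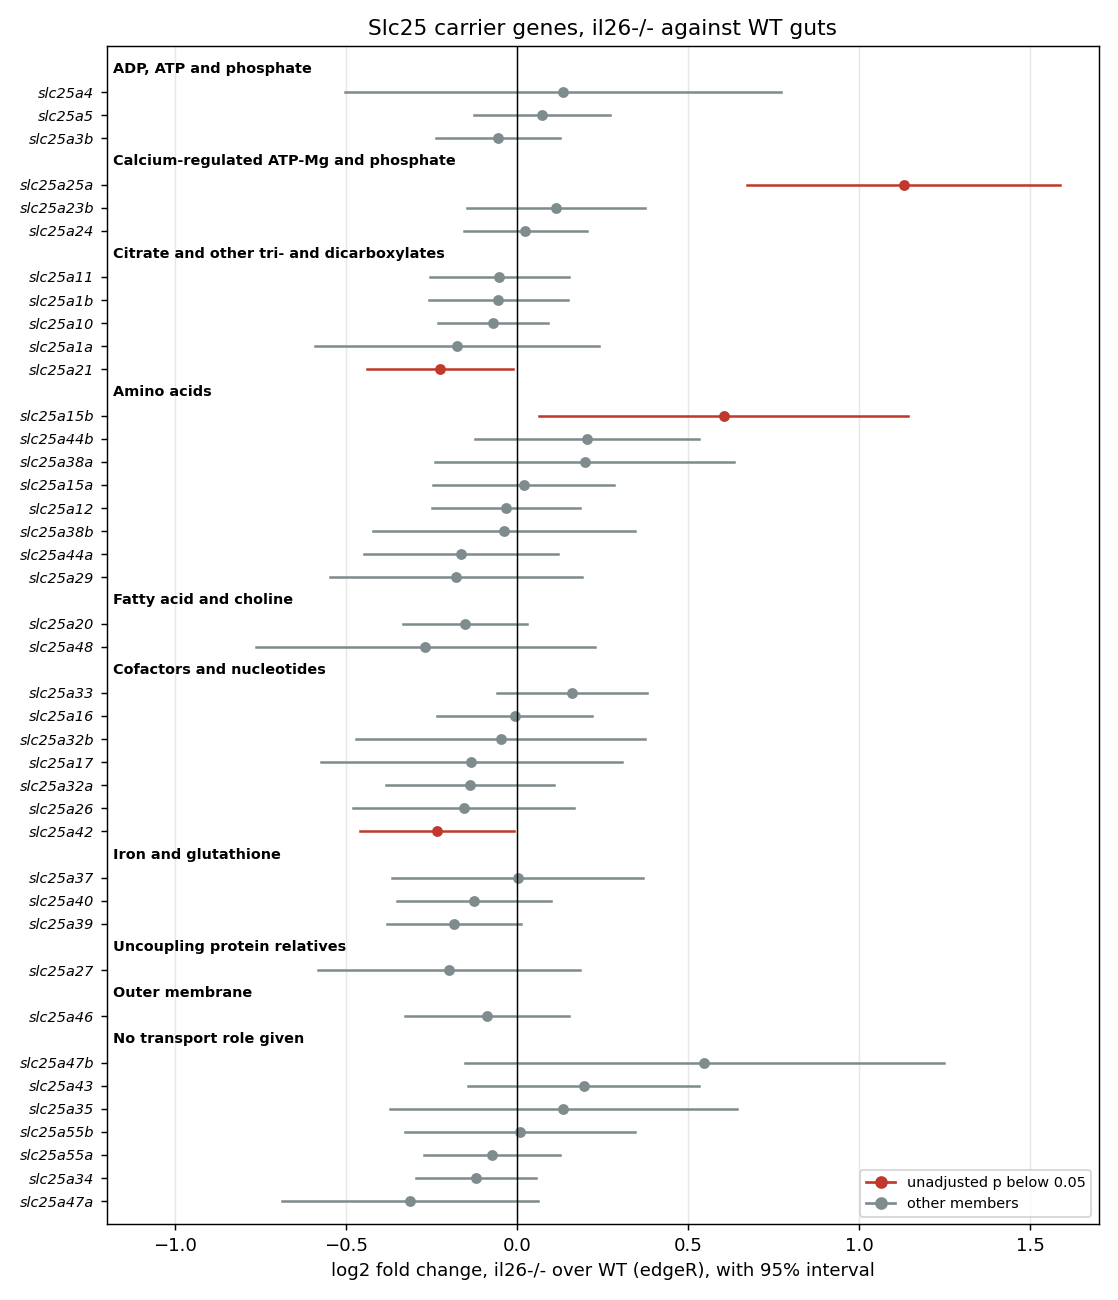
Log2 fold change of il26-/- over WT for 40 of the 41 tested Slc25 genes (points) with the 95% interval from the edgeR fit (lines), grouped by what the carriers are known to transport. The 4 genes with an unadjusted p-value below 0.05 are red, and slc25a25a at 1.13 stands apart from the others, which lie between -0.31 and 0.60.

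The calcium-regulated carriers exchange ATP-Mg for phosphate and so set the pool of adenine nucleotides in the matrix. Calcium in the cytosol switches them on through a domain that faces outward. Of the 5 listed, slc25a25a, slc25a24 and slc25a23b were tested. The largest difference of the family was here. Expression of slc25a25a was 235, 190 and 180 CPM in il26-/- replicates 1 to 3, against 65.1, 112 and 98.8 CPM in WT replicates 1 to 3. Every il26-/- library lay above every WT library, and WT replicate 1 was the lowest of the 6.

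The mean of slc25a25a was 202 ± 29.3 CPM in il26-/- and 92.1 ± 24.4 CPM in WT (SD, n = 3 each). The ratio of il26-/- over WT was 2.19 with a 95% interval of 1.59 to 3.01, or 1.13 ± 0.20 (SE) on the log2 scale. Its unadjusted edgeR p-value of 0.000468 was number 36 of 11095 genes, and the adjusted p-value was 0.144, so the difference did not pass in edgeR. In DESeq2 the adjusted p-value was 5.53e-06, with a log2 fold change of 1.12. Leaving out single libraries gave log2 fold changes of 0.92 (without WT replicate 1) to 1.3 (without WT replicate 2), and edgeR adjusted p-values of 0.133 to 0.442.

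Values of the close relatives of slc25a25a overlapped between genotypes. Expression of slc25a24 was 89.8, 87.1 and 81.7 CPM in il26-/- libraries, against 89.9, 81.8 and 82.5 CPM in WT libraries. Its log2 fold change of 0.025 ± 0.078 (SE) had a 95% interval of 0.897 to 1.15 in fold. For slc25a23b the libraries held 28.7, 29.8 and 29.1 CPM in il26-/-, against 31.9, 24.3 and 24.7 CPM in WT. Its interval was 0.904 to 1.3 in fold. The intervals of slc25a24 and slc25a23b do not reach that of slc25a25a, but the differences between these genes were not tested. The duplicate slc25a25b had 4, 4 and 26 counts in il26-/- replicates 1 to 3 and 5, 6 and 4 counts in WT replicates 1 to 3, so its highest value came from 1 library and was too low to be tested. The relative slc25a24l had 1 to 4 counts per library. Summed over the 5 genes, the group held 354, 307 and 292 CPM in il26-/- libraries, against 187, 219 and 206 CPM in WT libraries, and slc25a25a supplied the gap.

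**Figure D3:**
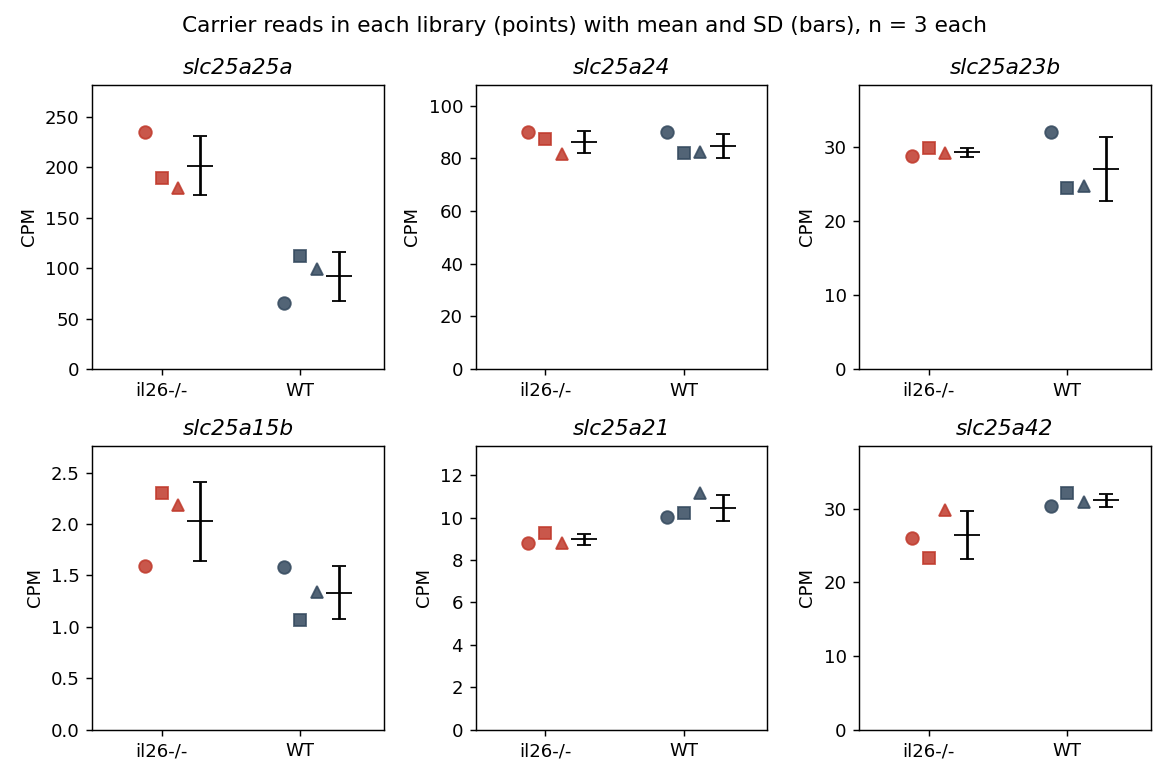
CPM of 6 Slc25 genes in each library (a marker shape for each replicate number, il26-/- left of WT), with mean and SD of 3 libraries as bars; each axis starts at 0. The il26-/- points of slc25a25a (180 to 235 CPM) clear its WT points (65.1 to 112 CPM), slc25a24 and slc25a23b overlap between genotypes, and slc25a15b, slc25a21 and slc25a42 part by narrow gaps.

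The ADP, ATP and phosphate carriers supply the substrates and carry off the product of ATP synthase. Expression of slc25a5 was 8308, 8575 and 7935 CPM in il26-/- replicates 1 to 3, against 8364, 7530 and 7709 CPM in WT replicates 1 to 3. The ranges overlapped, and the interval of the difference was 0.917 to 1.21 in fold (log2 fold change 0.072 ± 0.086, SE). Expression of slc25a3b was 1297, 1209 and 1209 CPM in il26-/- libraries, against 1353, 1277 and 1233 CPM in WT libraries, with an interval of 0.848 to 1.09. These genes thus overlapped between the genotypes and had narrow intervals. The ADP/ATP carrier slc25a6 had 4, 4 and 9 counts in il26-/- and 8, 6 and 3 counts in WT, and the phosphate carrier copy slc25a3a had 2 to 8 counts per library. Neither could be tested.

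The ADP/ATP carrier slc25a4, whose mammalian counterpart predominates in heart and skeletal muscle, was singled out after its values were seen. It had 7.31, 4.86 and 6.17 CPM in il26-/- replicates 1 to 3, against 3.53, 5.52 and 7.77 CPM in WT replicates 1 to 3. These values rested on 76 to 186 counts per library. The summed level of 13 skeletal muscle markers, of which 1 was at 0 in every library and 10 were tested, was 3216, 1757 and 2720 CPM in il26-/-, against 1643, 2026 and 3623 CPM in WT. Both measures put the 6 libraries in the same order, with WT replicate 1 lowest and WT replicate 3 highest. A muscle score, the mean log2 CPM of the tested markers, ordered them otherwise. It put il26-/- replicate 2 (6.62) above WT replicate 2 (6.60). The part of muscle in the values of slc25a4 was not tested. The log2 fold change of slc25a4 was 0.13 ± 0.28 (SE), and -0.12 without WT replicate 1 and -0.024 without il26-/- replicate 1. With the muscle score as covariate it was 0.11.

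Citrate, dicarboxylate and oxoglutarate carriers link the citric acid cycle with lipid synthesis and with the malate-aspartate shuttle, which brings cytosolic reducing power to the matrix. All 5 listed were tested, and all 5 estimates were below 0, against 46.8% of all genes. Of the 5, 1 had an unadjusted p-value below 0.05, as did 6.03% of all genes. The dicarboxylate carrier slc25a10, which exchanges malate or succinate for phosphate, had 279, 289 and 290 CPM in il26-/- libraries, against 300.2, 305 and 295 CPM in WT libraries. The libraries did not overlap, yet the gap was small, with a log2 fold change of -0.071 ± 0.070 (SE). The citrate carrier slc25a1b had 196, 225 and 228 CPM in il26-/- and 213, 228 and 234 CPM in WT, an interval of 0.836 to 1.11 in fold. The oxoglutarate carrier slc25a11 of the shuttle had 163, 165 and 155 CPM in il26-/- and 182, 167 and 152 CPM in WT. Its log2 fold change of -0.052 became 0.0018 without WT replicate 1.

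The smallest unadjusted p-value among lower members was that of slc25a21, which carries oxoadipate in the breakdown of lysine and tryptophan. It had 8.81, 9.27 and 8.82 CPM in il26-/- libraries, against 10.0, 10.2 and 11.2 CPM in WT libraries. The il26-/- libraries lay below the WT ones, with a log2 fold change of -0.22 ± 0.093 (SE). Its unadjusted edgeR p-value was 0.0418 and its adjusted p-value 0.808. The second citrate carrier copy slc25a1a, at 1.41 to 1.68 CPM in il26-/- and 1.69 to 1.95 CPM in WT, also did not overlap, by a narrow gap. These levels rested on 22 to 48 counts per library. The interval was 0.664 to 1.18 in fold, and the unadjusted edgeR p-value was 0.378. Summed over the 5 genes the group held 648, 689 and 683 CPM in il26-/- and 707, 711 and 694 CPM in WT.

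Partners of these carriers were taken as lists. Of 6 tested malate-aspartate shuttle enzymes, 0 were called and 1, mdh1ab (a cytosolic malate dehydrogenase), had an unadjusted p-value below 0.05 (6.03% over all genes). It averaged 4.75 ± 0.394 CPM in il26-/- and 6.50 ± 1.65 CPM in WT (SD, n = 3 each). The median log2 fold change of the list was -0.029. Of 5 tested citrate and acetyl-CoA enzymes, 0 were called and 0 had an unadjusted p-value below 0.05. ATP synthase subunits, which use the phosphate and ADP brought in by slc25a3b and slc25a5, had estimates below 0 in 14 of 15, against 46.8% of all genes. Their median log2 fold change was -0.11, with 0 called and 0 at an unadjusted p-value below 0.05.

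Amino acid carriers numbered 8, all tested, with 4 estimates above and 4 below 0. The ornithine carriers of the urea cycle, slc25a15a and slc25a15b, exchange ornithine for citrulline. Expression of slc25a15b was 1.59, 2.30 and 2.19 CPM in il26-/- libraries, against 1.58, 1.07 and 1.34 CPM in WT libraries. The lowest il26-/- library barely cleared the highest WT library, and these levels rested on 29 to 62 counts per library. The log2 fold change reached 0.60 ± 0.23 (SE). In edgeR the p-value was 0.0327 before and 0.777 after adjustment. Its partner slc25a15a had 5.81, 6.20 and 5.85 CPM in il26-/- and 6.34, 5.41 and 5.85 CPM in WT, a log2 fold change of 0.020 ± 0.12 (SE).

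The branched-chain amino acid carrier copies pointed opposite ways, within overlapping ranges. For slc25a44b the libraries held 14.3, 16.2 and 17.4 CPM in il26-/- and 14.7, 11.2 and 15.8 CPM in WT. For slc25a44a they held 9.35, 11.2 and 12.1 CPM in il26-/- and 13.3, 12.1 and 11.2 CPM in WT. The aspartate/glutamate carrier slc25a12, a carrier of the malate-aspartate shuttle, had 13 to 13.8 CPM in il26-/- and 12.4 to 14.5 CPM in WT. Its interval was 0.843 to 1.14 in fold. The basic amino acid carrier slc25a29 had 6.58 to 8.04 CPM in il26-/- and 6.73 to 9.50 CPM in WT.

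Among the glutamate and urea cycle enzymes, which handle the substrates of these carriers, 7 were tested and 0 called in edgeR. Of these, 3 had an unadjusted p-value below 0.05 (6.03% over all genes), and 6 had estimates below 0 (46.8% over all genes). The lowest log2 fold changes of this list were those of the glutaminases, glsa (-1.48) and gls2b (-1.47). Expression of glsa was 4.03 ± 1.34 CPM in il26-/- and 11.5 ± 1.54 CPM in WT, and gls2b was 12.2 ± 4.58 CPM in il26-/- and 34.1 ± 5.69 CPM in WT (SD, n = 3 each). Their edgeR adjusted p-values were 0.0914 and 0.133, while DESeq2 called both (adjusted p-values of 1.92e-07 and 2.50e-07). Mitochondrial arginase, arg2, had a log2 fold change of -0.32 ± 0.13 (SE) with an unadjusted edgeR p-value of 0.0352.

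Glycine carriers and mitoferrins feed heme synthesis, and their loss impairs red cell formation in zebrafish. The glycine carrier slc25a38a had 66.2, 37.8 and 51.8 CPM in il26-/- replicates 1 to 3, against 43.4, 51.7 and 40.9 CPM in WT replicates 1 to 3. The il26-/- libraries held both the lowest and the highest value, with a ratio of 1.75 between them. Its copy slc25a38b had 2.59 to 3.42 CPM in il26-/- and 2.84 to 3.38 CPM in WT. Mitoferrin 1, slc25a37, had 4.72 to 6.01 CPM in il26-/- and 4.87 to 6.48 CPM in WT, while mitoferrin 2, slc25a28, was listed at 0 in all 6 libraries. The summed level of 8 red blood cell markers was 52.2, 47.9 and 61.9 CPM in il26-/-, against 60.3, 80.4 and 115 CPM in WT. All 7 tested markers were lower in il26-/-, and 2 of them had an unadjusted p-value below 0.05. Over all genes, 46.8% were lower and 6.03% had such a p-value. The part of red blood cells in these carriers was not tested. Of 11 tested heme and iron-sulfur enzymes, 0 were called, 0 had an unadjusted p-value below 0.05, and 6 estimates were above 0.

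The glutathione carrier slc25a39 was among the members without overlap. It had 32.3, 29.4 and 27.6 CPM in il26-/- libraries, against 33.1, 35.8 and 32.4 CPM in WT libraries. The il26-/- libraries were lower by a narrow margin (log2 fold change -0.18 ± 0.085, SE) and the unadjusted edgeR p-value was 0.0627. Its relative slc25a40 had 20.1 to 23.6 CPM in il26-/- and 22.1 to 25.6 CPM in WT.

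Fatty acids reach the matrix as acylcarnitines through slc25a20, the carnitine/acylcarnitine carrier. It had 160, 163 and 166 CPM in il26-/- libraries, against 184, 191 and 168 CPM in WT libraries. The il26-/- libraries were all below the WT ones, with -0.15 ± 0.078 (SE) as log2 fold change. Before adjustment the edgeR p-value was 0.0901. The interval was 0.794 to 1.02 in fold. Of 5 tested carnitine system enzymes, 0 were called and 0 had an unadjusted p-value below 0.05. Of their estimates, 4 were below 0 (46.8% over all genes), with a median log2 fold change of -0.064. The choline carrier slc25a48 had 101, 100.0 and 168 CPM in il26-/- libraries, against 121, 169 and 155 CPM in WT libraries. It spread widely in both genotypes, and its interval was 0.589 to 1.17 in fold. The log2 fold change was -0.27, and it ranged from -0.56 without il26-/- replicate 3 to -0.16 without il26-/- replicate 2.

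Cofactor and nucleotide carriers numbered 10, of which 8 were tested and 7 had estimates below 0 (46.8% over all genes). The coenzyme A carrier slc25a42 had 26.1, 23.3 and 29.8 CPM in il26-/- libraries, against 30.3, 32.1 and 30.9 CPM in WT libraries. The genotypes did not overlap, and the log2 fold change was -0.23 ± 0.097 (SE). Its unadjusted edgeR p-value was 0.0437 and its adjusted p-value 0.815. The group's member above 0 was the pyrimidine nucleotide carrier slc25a33, with 120, 104 and 107 CPM in il26-/- and 108, 91.8 and 95.8 CPM in WT. These ranges overlapped, and the log2 fold change of 0.16 ± 0.095 (SE) was 0.080 without il26-/- replicate 1.

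Among the rest of these carriers the differences were smaller than their intervals. The coenzyme A-linked slc25a16 had 35.7 to 38.9 CPM in il26-/- and 33.2 to 42.1 CPM in WT, and the folate or FAD carrier slc25a32a had 32.1 to 40.9 CPM in il26-/- and 38.1 to 43.5 CPM in WT. Its copy slc25a32b, the peroxisomal slc25a17 and the S-adenosylmethionine carrier slc25a26 had unadjusted edgeR p-values of 0.800, 0.502 and 0.299. The NAD+ carrier slc25a51a had 0 to 4 counts per library and the pyrimidine carrier slc25a36a 0 or 1, too few to test.

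Members with no transport role given here included the pair slc25a47a and slc25a47b. The mammalian counterpart of slc25a47a is a carrier of liver. In these guts slc25a47a had 50.9, 32.8 and 35.3 CPM in il26-/- replicates 1 to 3, against 47.3, 54.2 and 46.6 CPM in WT replicates 1 to 3. The ranges overlapped through il26-/- replicate 1, and the log2 estimate of il26-/- over WT was -0.31 ± 0.16 (SE). Before adjustment the edgeR p-value was 0.0891. Without il26-/- replicate 1 the estimate was -0.55 (edgeR adjusted p = 0.328), and without il26-/- replicate 2 it was -0.21. The summed level of 10 liver markers, 9 of them tested and 8 of these with estimates below 0, was 14407, 11088 and 14119 CPM in il26-/-, against 8727, 19651 and 17372 CPM in WT. Over all genes, 46.8% had estimates below 0. The part of liver in the difference of slc25a47a was not tested. Its copy slc25a47b had 2.68, 2.17 and 3.10 CPM in il26-/- and 2.68, 1.69 and 1.13 CPM in WT, a log2 fold change of 0.55 ± 0.30 (SE) that was 0.91 without WT replicate 1 and 0.30 without WT replicate 3.

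The other such members overlapped between genotypes. The gene slc25a43 had 88.3, 69.8 and 68.7 CPM in il26-/- libraries and 75.7, 68.4 and 54.1 CPM in WT libraries, and its log2 fold change of 0.19 was 0.050 without il26-/- replicate 1. For slc25a34 the libraries held 43.2, 40.8 and 46.6 CPM in il26-/- and 46.3, 48.2 and 47.5 CPM in WT. The copies slc25a55a and slc25a55b, and slc25a35, had log2 fold changes of -0.073, 0.0096 and 0.14. The uncoupling protein relative slc25a27 had 8.69 to 10.9 CPM in il26-/- and 8.94 to 13.5 CPM in WT, slc25a14 was listed at 0 throughout, and the outer membrane protein slc25a46 had 9.76 to 11.9 CPM in il26-/- and 11.3 to 12.1 CPM in WT.

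Balance between duplicated copies was measured within each library as the share of a pair's counts that came from the a copy, which needs no scaling between libraries. Of 9 pairs, slc25a3 and slc25a1 were almost wholly b, with 0.0160% and 0.726% from the a copy in il26-/-, against 0.0166% and 0.791% in WT. The pair slc25a25 was almost wholly a, at 99.8% in both genotypes. The pairs slc25a32, slc25a38, slc25a47 and slc25a55 had 89.4% to 94.0% from the a copy in il26-/- and 90.1% to 96.4% in WT, as means. The most even shares were those of slc25a15 and slc25a44.

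These 2 pairs were also those whose shares did not overlap between genotypes. Shares of pairs outside the members were not measured, so no background stands beside these 2 of 9. The slc25a15a share was 78.5%, 72.9% and 72.8% in il26-/- libraries, against 80.0%, 83.5% and 81.4% in WT libraries. With 133 to 228 counts per library the Wilson 95% intervals of single libraries overlapped (71.6% to 84.1% in il26-/- replicate 1, 73.8% to 85% in WT replicate 1). The slc25a44a share was 39.5%, 40.9% and 41.1% in il26-/- libraries, against 47.5%, 52% and 41.6% in WT libraries, so WT replicate 3 lay next to the il26-/- libraries. The differences of il26-/- minus WT were -6.88 percentage points for slc25a15 and -6.52 for slc25a44. Leaving out single libraries gave -8.77 to -5.91 for slc25a15, and for slc25a44 -9.21 without WT replicate 3 to -4.05 without WT replicate 2. The exact permutation test gave p = 0.1 for each (two-sided, the smallest value that 3 against 3 allows), and 0.45 after Benjamini-Hochberg adjustment over 9 pairs. Shares that do not overlap always give this smallest value, so it adds nothing to the lack of overlap.

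**Figure D4:**
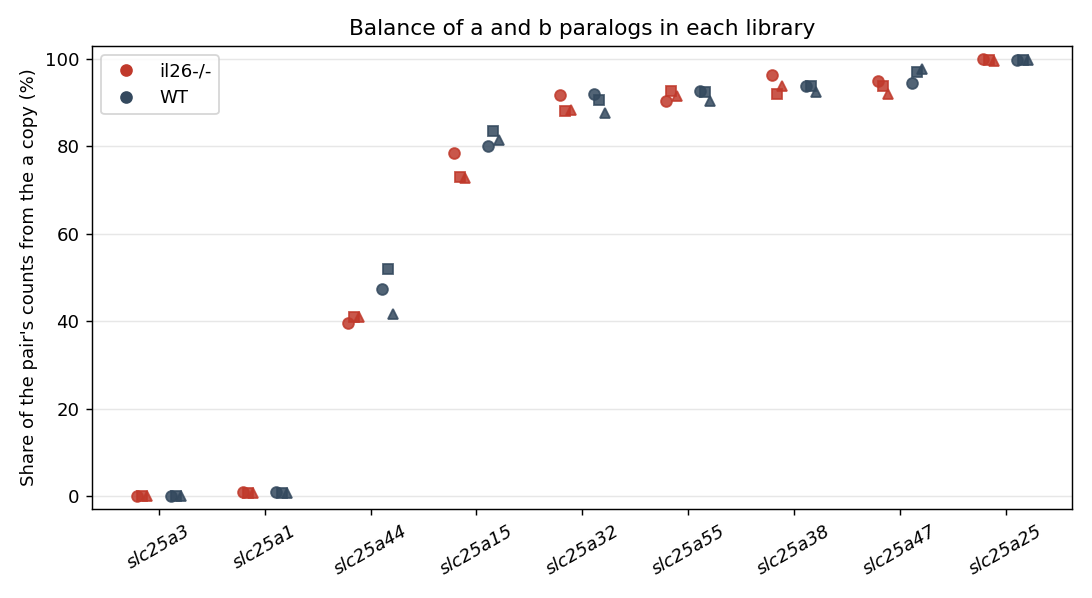
Share of each pair's counts that came from the a copy, in percent, for the 9 pairs of Slc25 paralogs, with il26-/- libraries in red left of WT libraries in dark blue and a marker shape for each replicate number. Shares lie near 0 or above 87% in 7 pairs, while slc25a15 (72.8% to 78.5% in il26-/-, 80.0% to 83.5% in WT) and slc25a44 (39.5% to 41.1% in il26-/-, 41.6% to 52% in WT) do not overlap between genotypes.

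Mitochondrial carriers and channels outside the slc25a naming were set beside the members. Of 18 tested, 0 were called in edgeR, and 13 estimates were above 0 (53.2% over all genes). An unadjusted edgeR p-value below 0.05 was found for 2 (6.03% over all genes), both higher in il26-/-. The uncoupling protein gene ucp3 averaged 31.4 ± 4.24 CPM in il26-/- and 21.4 ± 2.50 CPM in WT, and the outer membrane channel gene vdac1 averaged 79.0 ± 13.8 CPM in il26-/- and 60.0 ± 1.27 CPM in WT (SD, n = 3 each). Their edgeR adjusted p-values were 0.283 and 0.589, and DESeq2 called ucp3 (adjusted p-value of 0.0483). The uncoupling protein gene ucp1 averaged 13597 CPM in il26-/- and 12735 CPM in WT. It thus had more reads than slc25a5, at 8273 CPM in il26-/- and 7868 CPM in WT. The log2 fold change of ucp1 was 0.094 ± 0.084 (SE). DESeq2 called 0 genes of the malate-aspartate, citrate, carnitine, heme and ATP synthase lists. The median log2 fold change of the carrier and channel list was 0.021, against 0.011 over all genes and -0.055 for the Slc25 members.

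In the RefSeq gene order of GRCz12tu, 0 of the 41 tested members lay on the chromosome of il26. The untested slc25a3a did, and its 2 to 8 counts per library give no measure of it.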

How the data were processed

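Poly(A)-selected, stranded libraries were sequenced as 100-bp read pairs, checked with FastQC 0.11.8 and aligned to danRer11. The authors deposited raw counts, 1 row for each gene symbol. The authors named edgeR, while aligner, counting tool, annotation and handling of shared reads are not given in the sources used here. Every column matched a library name in the labels (0 further value columns).

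For the comparison, filterByExpr of edgeR 4.0.16 (R 4.3.3; minimum count 10, minimum total 15) chose the genes to test. These were scaled by TMM and compared with genotype as only factor (glmQLFit, glmQLFTest, two-sided, Benjamini-Hochberg over 11095 genes). Standard errors were the log2 fold change over the square root of F, and 95% intervals came from them, unadjusted for the number of genes. Intervals of shares and the floor of 3 counts cover counting error only. Replicates were taken from titles, so p-values measure the spread between these pools. No pair of libraries was a duplicate, since chi-square over its degrees of freedom was 16.7 to 53.3. The lowest value joined il26-/- replicate 2 and WT replicate 1, and the highest WT replicates 1 and 2. Libraries thus did not group by genotype in this measure. The test was checked on simulated data.

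The members, lists and tests were chosen with earlier results of these data known. Values per library were given for the 10 members with most WT reads, the 6 higher and 6 lower members with the smallest p-values, and paralogs whose shares did not overlap. Outside these rules, they were also given for slc25a4, slc25a23b and slc25a38a. A planned order per coding length was not made, because no lengths were used here, and CPM was used instead. Symbols of 48 members matched RefSeq. A tested member that entered every count and fit is not reported by name here and is left out of the plots. Alternatives were DESeq2 1.42.0, a replicate block, a skeletal muscle covariate, RLE scaling, other filters (none, or 10 counts in all libraries) and leaving out single libraries.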

Additional observations from a re-analysis of the deposited data

How the results depend on the processing

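The absence of a called Slc25 member in edgeR held under RLE scaling, without a filter, with 10 counts required of all libraries, with the muscle covariate or the replicate block, and without each single library. DESeq2 called 1 member (slc25a25a, log2 fold change 1.12) and 83 genes in all. It had 1 member at an unadjusted p-value below 0.05, where 474 of 11095 genes had such a p-value. Leaving out single libraries gave 1 to 5 such members, with 1 in the fit without WT replicate 2. Over all genes these fits gave 424 of 11206 (without WT replicate 2) to 1024 of 11221 (without WT replicate 3). Called genes numbered 3 to 8 in all, and the median log2 fold change over the members was -0.092 to -0.051. The labels tie no libraries together by number. Across genes, same-numbered libraries deviated from their group means with correlations of -0.226, -0.0426 and 0.114. With the replicate block, 1 member had an unadjusted p-value below 0.05 (slc25a25a, edgeR adjusted p = 0.408) and 2 genes were called. Over all genes, 626 of 11095 had such an unadjusted p-value in this fit. The block leaves fewer residual degrees of freedom. The cause of these and the other changes was not tested.

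Of 22 members followed, 4 changed direction when single libraries were left out. Log2 fold changes ranged from -0.035 to 0.067 for slc25a15a, -0.12 to 0.0018 for slc25a11, -0.023 to 0.062 for slc25a24 and -0.12 to 0.44 for slc25a4. The number of members with an estimate above 0 was 12 to 19 over the same fits. It was 12 (29.3%) without WT replicate 2, against 52.2% of all genes in that fit. Without WT replicate 3 it was 19 (46.3%), against 54.1% of all genes. The planned order per coding length and its transcript length alternative were not run. The 8 members set aside had too few counts for a test, and 2 of them had none in any library. Why their counts were low was not tested.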
